A study of Homo sapiens with 10 samples.

Results

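The 9 genes described here are HGF, its receptor MET, the related receptor MST1R, the proteases HGFAC, HPN and ST14, the protease inhibitors SPINT1 and SPINT2, and the MET adaptor GAB1, out of 58302 genes listed per library. They were chosen by name and matched to Ensembl identifiers by symbol, and all 9 were found. RNA-Seq was available for 10 libraries of 3 cell lines named as human hepatocellular carcinoma lines, with 1 library per condition. The 5 SK-Hep1 libraries were made from control cells (mock) and from cells overexpressing PSPC1, PSPC1 with PTK6 (PSPC1/PTK6), the tyrosine-to-phenylalanine mutant PSPC1-Y523F, or PSPC1-Y523F with PTK6 (PSPC1-Y523F/PTK6). PSPC1 is a paraspeckle RNA-binding protein and PTK6 a nonreceptor tyrosine kinase. The 3 Mahlavu libraries came from mock control cells, cells overexpressing the C-terminal fragment PSPC1-CT131, and cells labelled as overexpressing an NLS mutant (Mut-NLS), which the label names as a mutant of PSPC1 and the plasmid methods as a mutant of the fragment. The 2 Huh-7 libraries were made from untreated cells and from cells exposed for 48 h to HGF at 10 ng/ml, which asked how HGF signalling through c-Met acts on the PSPC1 and PTK6 axis.

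HGF is secreted as an inactive single chain and binds MET, but it signals only after serine proteases cut it into a disulfide-linked heterodimer. HGFAC (HGF activator, itself a liver-made zymogen), HPN (hepsin) and ST14 (matriptase) make this cut, and the Kunitz-type membrane inhibitors SPINT1 (HAI-1) and SPINT2 (HAI-2) block them. Active MET recruits the docking protein GAB1 and signals to ERK, PI3K and STAT3, and in liver this axis is known for hepatocyte growth and regeneration.

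The levels below are FPKM, fragments scaled by gene length and by the number of mapped reads. Total reads on genes were between 15245935 and 24278662 per library. PSPC1 was listed at 0 in SK-Hep1 mock, at 7.01 FPKM in PSPC1 and 26.4 with PTK6 beside it, and at 2.28 FPKM in PSPC1-Y523F and 70.9 with PTK6 beside it, so its amount differed widely among the overexpressing libraries. In Mahlavu it was 47.3 FPKM in mock, 30.8 in the library labelled PSPC1-CT131 and 22.5 in the library labelled Mut-NLS, both below mock, and the tables do not separate a transgene from the endogenous gene. PTK6 was between 4.09 and 5.69 FPKM in the SK-Hep1 libraries without added PTK6 and 10.5 and 16.7 FPKM in those with it. Hepatocyte markers were present in Huh-7, where all 12 reached 1 FPKM in both libraries, with ALB at 5948 and 6029 FPKM. In SK-Hep1 and in Mahlavu 11 of the 12 stayed under 1 FPKM in every library, and ALB was listed at 0 in all 8. Endothelial markers were under 1 FPKM in every library for 9 of 9 genes in SK-Hep1, 9 of 9 in Mahlavu and 7 of 9 in Huh-7. Summed stromal markers were 104 to 345 FPKM in SK-Hep1, 41.5 to 57.9 in Mahlavu and 172 to 186 in Huh-7, and summed leukocyte markers were 6.07 to 18.3, 7.23 to 10.4 and 432 to 446 FPKM, of which LYZ gave 441 and 427 in Huh-7.

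Promoter sequences, 250 bases before to 50 after the RefSeq start (GRCh38.p14), were at hand for 6 of the 9 genes. Those of MET, which was at a like level in every line, and of HGFAC, HPN and SPINT1, which were high only in Huh-7, are shown 5′ to 3′ on the gene's strand with CpG dinucleotides in capitals. The MET window is chr7:116671946-116672245, HGFAC chr4:3441718-3442017, HPN chr19:35041471-35041770 and SPINT1 chr15:40843798-40844097, all on the plus strand.
MET: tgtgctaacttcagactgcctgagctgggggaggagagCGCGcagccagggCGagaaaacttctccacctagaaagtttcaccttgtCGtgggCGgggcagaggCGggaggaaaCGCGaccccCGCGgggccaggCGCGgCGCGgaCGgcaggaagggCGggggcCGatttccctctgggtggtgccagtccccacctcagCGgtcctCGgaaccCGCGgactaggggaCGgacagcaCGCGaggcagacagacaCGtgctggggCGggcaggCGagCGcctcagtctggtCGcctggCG
HGFAC: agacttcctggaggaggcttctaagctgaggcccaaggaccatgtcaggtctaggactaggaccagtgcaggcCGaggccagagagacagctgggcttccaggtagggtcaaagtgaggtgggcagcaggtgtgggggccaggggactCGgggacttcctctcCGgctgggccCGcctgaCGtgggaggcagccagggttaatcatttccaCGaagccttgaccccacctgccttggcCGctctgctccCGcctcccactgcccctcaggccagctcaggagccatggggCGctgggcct
HPN: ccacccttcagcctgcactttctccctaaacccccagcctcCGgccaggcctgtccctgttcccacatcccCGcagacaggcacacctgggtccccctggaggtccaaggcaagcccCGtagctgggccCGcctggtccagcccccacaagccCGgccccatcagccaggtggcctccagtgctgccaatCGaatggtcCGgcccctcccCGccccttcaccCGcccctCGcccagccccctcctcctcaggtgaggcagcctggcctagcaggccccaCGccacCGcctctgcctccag
SPINT1: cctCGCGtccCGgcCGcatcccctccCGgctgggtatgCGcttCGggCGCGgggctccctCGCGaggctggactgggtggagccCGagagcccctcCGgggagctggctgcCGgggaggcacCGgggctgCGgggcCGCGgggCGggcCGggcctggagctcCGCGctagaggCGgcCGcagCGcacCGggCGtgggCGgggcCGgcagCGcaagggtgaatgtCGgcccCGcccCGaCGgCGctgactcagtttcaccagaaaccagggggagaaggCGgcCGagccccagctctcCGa
The SPINT1 window held 38 CpG, more than 90.1% of 35116 promoters of the same length, and the MET window held 30, more than 77.6%. HGFAC held 9 CpG (more than 41.6% of promoters) and HPN 12 (more than 46.9%), near the median of 14, so the genes high in Huh-7 were not alike in CpG content. The GC box GGGCGG, searched on both strands, occurred 3 times in MET, 3 times in SPINT1, 2 times in HPN and not in HGFAC, and it is in 45.0% of promoters. The letters GTTAAT, part of the site of the liver factor HNF1, were found 1 time in HGFAC and 1 time in the HGF promoter, and it is in 6.88% of promoters. The letters CAGGTG, an E-box of ZEB and SNAIL factors, occurred 3 times in HPN, 2 times in HGFAC and 2 times in MST1R, against 20.6% of promoters with a match. These are matches of letters, and the HPN window starts from a RefSeq start 1215 bases from the gene start listed in the tables.

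The ligand was all but absent. HGF (ENSG00000019991, chr7:81699006-81770438, minus strand) was listed at 0 reads in the 5 SK-Hep1 and 3 Mahlavu libraries. In Huh-7 it was listed at 0.0367 FPKM untreated and 0.0394 FPKM after HGF, a ratio of 1.07 that the difference in total reads alone gives, so both libraries held the same number of HGF reads. That number could not be recovered, because a gene without reads in the other lines has no known FPKM length.

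MET (ENSG00000105976, chr7:116672390-116798386, plus strand), the receptor tyrosine kinase, was the steadiest of the members found in all lines. In SK-Hep1 mock it was at 40.4 FPKM, with PSPC1 at 38.2, with PSPC1/PTK6 at 50.2, with PSPC1-Y523F at 47.5 and with PSPC1-Y523F/PTK6 at 40.3. It was at 44.7, 34.1 and 42.8 FPKM in Mahlavu mock, PSPC1-CT131 and Mut-NLS, and at 50.01 and 51.8 FPKM in untreated and HGF-treated Huh-7. The highest of the 10 libraries was 1.52 times the lowest, and 1.09% of the 13858 genes averaging 1 FPKM or more had a smaller range. Within each library 81.4% to 89.2% of the genes with reads were below MET. Line medians were 40.4, 42.8 and 50.9 FPKM, and the SK-Hep1 and Mahlavu libraries overlapped, as did SK-Hep1 and Huh-7, whereas Mahlavu lay below Huh-7 with medians 1.19-fold apart.

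MST1R (ENSG00000164078, chr3:49887002-49903873, minus strand), the receptor for macrophage-stimulating protein, was under 1 FPKM in every library. It had 5, 11, 19, 10 and 15 reads in the SK-Hep1 libraries in the order above, 11, 38 and 16 reads in Mahlavu, and 30 and 18 in Huh-7. The most were thus in the library labelled PSPC1-CT131 (0.904 FPKM) and in untreated Huh-7 (0.863 FPKM). Its ligand gene MST1 was at 2.26 to 7.27 FPKM in the 8 SK-Hep1 and Mahlavu libraries and at 63.2 and 80.7 FPKM in Huh-7.

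The 3 HGF-activating proteases were high only in Huh-7. HPN (ENSG00000105707, chr19:35040506-35066571, plus strand) was at 82.6 FPKM untreated and 110.9 FPKM after HGF, at 0.4005, 0.494 and 0.403 FPKM in Mahlavu, and at 0 reads in all 5 SK-Hep1 libraries. It was at least 797-fold higher in Huh-7 than the level that 3 reads per library allow in SK-Hep1. HGFAC (ENSG00000109758, chr4:3441887-3449495, plus strand) was at 6.17 and 9.13 FPKM in Huh-7, with 172 and 237 reads, and had 0 to 3 reads in each other library. ST14 (ENSG00000149418, chr11:130159562-130210376, plus strand) was at 4.24 and 6.29 FPKM in Huh-7 and had 0 to 5 reads elsewhere. HPN reads cannot be told from those of HPN-AS1 on the other strand, which was at 0.543 and 0.408 FPKM in Huh-7, because the kit named in the labels does not mark strand.

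The 2 inhibitors were found in different lines. SPINT1 (ENSG00000166145, chr15:40844018-40858207, plus strand) was at 14.0 and 18.6 FPKM in Huh-7. It had 3, 2, 32, 0 and 3 reads in the SK-Hep1 libraries and 7, 2 and 3 in Mahlavu, so a single SK-Hep1 library, PSPC1/PTK6 at 1.14 FPKM, stood above 1 FPKM outside Huh-7. SPINT2 (ENSG00000167642, chr19:38244035-38292614, plus strand) was at 2.09, 6.30, 2.63, 2.67 and 4.49 FPKM in SK-Hep1, at 0.163, 0.187 and 0 FPKM in Mahlavu, and at 0.338 and 0.545 FPKM in Huh-7. The SK-Hep1 median was 16.4 times that of Mahlavu and 6.05 times that of Huh-7, with no overlap. PPP1R14A, which overlaps SPINT2 on the other strand, had 0 to 2 reads in the SK-Hep1 and Mahlavu libraries but was at 7.71 and 6.26 FPKM in Huh-7, above SPINT2, and without strand the reads of the pair cannot be told apart there. SPINT1-AS1, on the other strand of SPINT1, had 0 reads in those 8 libraries.

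GAB1 (ENSG00000109458, chr4:143336762-143474568, plus strand) was at 2.60, 2.55, 3.56, 2.64 and 2.49 FPKM in SK-Hep1, at 5.96, 4.50 and 7.52 in Mahlavu, and at 21.5 and 23.01 in Huh-7. The lines thus did not overlap and stood in the order SK-Hep1, Mahlavu, Huh-7, with medians of 2.60, 5.96 and 22.2 FPKM. Levels between genes depend on the length behind the FPKM, which for GAB1 was 1471 bases against a listed length of 7981, and for MET 2319 against 6635.

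Between lines, a gene was counted as different where no library overlapped and the medians differed at least 2-fold. SK-Hep1 against Mahlavu, 2 of the 3 members with a mean of at least 1 FPKM did so (SPINT2 higher in SK-Hep1, GAB1 in Mahlavu), beside 32.4% of all such genes. SK-Hep1 against Huh-7, 6 of 7 did so, beside 56.9%, and Mahlavu against Huh-7, 5 of 6 did so, beside 49.8%. HGFAC, HPN, ST14 and SPINT1 reached the mean of 1 FPKM through Huh-7 alone, and SPINT2 through SK-Hep1 alone, so these 5 had to differ. The counts are a description and nothing is read from them. Among the other lists, some were present in 1 line and others in all. Of 12 epithelial markers 11 reached 1 FPKM in both Huh-7 libraries, 3 in all SK-Hep1 and 2 in all Mahlavu libraries. CDH1 (E-cadherin) was at 106 and 130.2 FPKM in Huh-7 and at most 0.477 FPKM elsewhere. The keratins went the other way between SK-Hep1 and Huh-7. KRT8 was at 3655 to 9434 FPKM in SK-Hep1 against 897 and 825 in Huh-7. KRT18 was at 1330 to 3233 against 174 and 152, and KRT19 at 305 to 1210 against 219 and 261. Summed epithelial markers were 5423 to 13881 FPKM in SK-Hep1, 612 to 1588 in Mahlavu and 1506 to 1516 in Huh-7. Of 12 genes made up of other proteases of the HGF cascade and the MST1R ligand, 7 reached 1 FPKM throughout Huh-7, 4 throughout SK-Hep1 and 3 throughout Mahlavu. PLAU (urokinase) was at 285 to 983 FPKM in SK-Hep1, 32.5 to 68.7 in Mahlavu and 12.3 to 13.8 in Huh-7, whereas F2 (prothrombin) was at 276 and 283 FPKM in Huh-7 and at most 0.0783 FPKM elsewhere. The serpins SERPINA5 and SERPINC1 were at 198 and 105 FPKM in untreated Huh-7 and at most 1.66 and 0.0953 FPKM elsewhere. All 24 adaptors and kinases downstream of MET were at 1 FPKM or more in every library of every line. Fewer cells that express a gene and less RNA per cell cannot be told apart in such libraries.

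HGF treatment of Huh-7 went with higher RNA of the HGF-activating proteases and of their inhibitor SPINT1, but not of MET by more than its counting error. HGFAC was 1.48 times higher (95% interval 1.21 to 1.81, counting error only; 172 reads untreated, 237 after HGF). ST14 was 1.48 times higher (1.16 to 1.91; 113 and 156 reads). HPN was 1.34 times higher (1.26 to 1.43; 1935 and 2420 reads).
The 3 activating proteases were each higher by a like factor, and the inhibitor SPINT1 was 1.33 times higher (1.13 to 1.57; 270 and 334 reads). GAB1 was 1.07 times (0.947 to 1.21) and MET 1.04 times (0.972 to 1.11) the untreated share of reads, intervals that hold 1. MST1R was at 0.644 times (0.338 to 1.19) and SPINT2 had 6 and 9 reads, too few to set apart. On the log2 scale of quantile-normalized FPKM + 1, the scale used for counts of changed genes, HGFAC was higher by 0.50, ST14 by 0.47, HPN by 0.43, SPINT1 by 0.40, GAB1 by 0.11 and MET by 0.06.

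**Figure D1:**
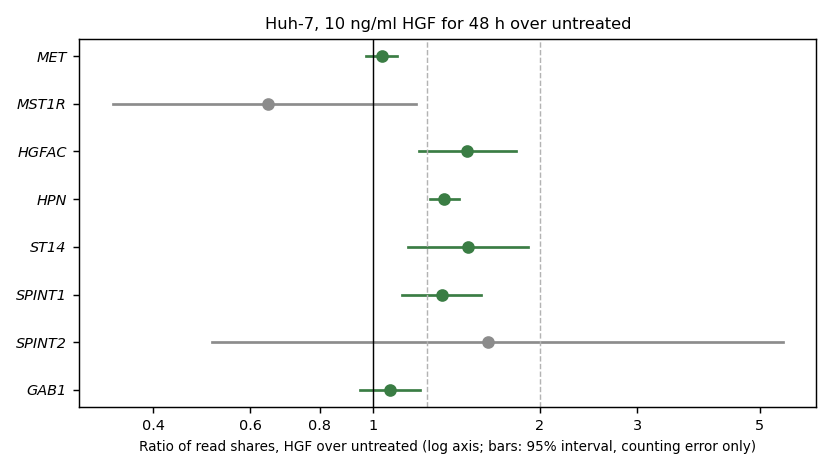
Ratio of read shares in Huh-7, HGF over untreated (log axis), with 95% intervals for counting error only, 1 library per condition; grey genes had a mean under 1 FPKM and dashed lines mark 25% higher and 2-fold. HGFAC, HPN, ST14 and SPINT1 lie between 1.33 and 1.48 with intervals above 1, and MET lies at 1.04.

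None of the 6 members with a mean of at least 1 FPKM passed 2-fold, beside 0.82% of 14262 genes. At 25% higher, a limit chosen after the values were seen, 4 of the 6 were higher, beside 6.49% of all genes and 3.92% of the genes with a mean of 5 to 100 FPKM. All 6 were higher on this scale, against 49.4% of all genes, whose log2 values had a standard deviation of 0.26. There is no replicate, and the spread between cultures is not known.

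Of the other proteases and the ligand of MST1R, 7 had a mean of at least 1 FPKM and all 7 were higher after HGF, with a median log2 of 0.15 and none past 2-fold. The next genes were picked after their values were seen. MST1 was the furthest from untreated in that list, at 63.2 FPKM untreated and 80.7 after HGF (ratio 1.28, 1.19 to 1.38). The serpins SERPINC1 and SERPINF2, which block thrombin-like proteases and plasmin, were 1.18 and 1.17 times higher, with 3 of 4 serpins higher on this scale and 2 on deposited FPKM. Co-receptors and partners of MET were 5 higher and 4 lower of 9, adaptors and kinases 12 and 12 of 24, and genes of MET turnover 8 and 4 of 12, with medians within 0.02 of 0 on the log2 scale.

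Genes that HGF is known to induce through ERK were mostly lower at 48 h: 4 of 23 were higher and 19 lower, with a median log2 of -0.14 beside -0.00 for all genes. Earlier times after HGF were not measured, so an earlier rise of these genes cannot be seen here. SPRY4, a feedback inhibitor of receptor kinase signalling, was at 28.6 FPKM untreated and 18.6 FPKM after HGF (ratio 0.649, 0.580 to 0.726). DUSP6, the ERK phosphatase, was at 43.97 and 34.99 FPKM (0.796, 0.730 to 0.867). Other scalings gave 20 or 21 lower.
Epithelial markers went the other way, with 7 of 11 higher and a median log2 of 0.28. ELF3, an epithelial transcription factor, was at 20.6 FPKM untreated and 29.7 after HGF (1.45, 1.29 to 1.62), CLDN3, a tight-junction claudin, at 10.5 and 14.6 (1.40, 1.17 to 1.68) and CDH1 at 106 and 130.2 (1.23, 1.18 to 1.29). The keratins KRT8 and KRT18 were lower, at 0.920 and 0.877 times. Hepatocyte markers were 3 higher and 7 lower of 12 on this scale and 7 higher and 5 lower on deposited FPKM. The part of the epithelial markers in the higher SPINT1, ST14 and HPN was not tested.

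**Figure D2:**
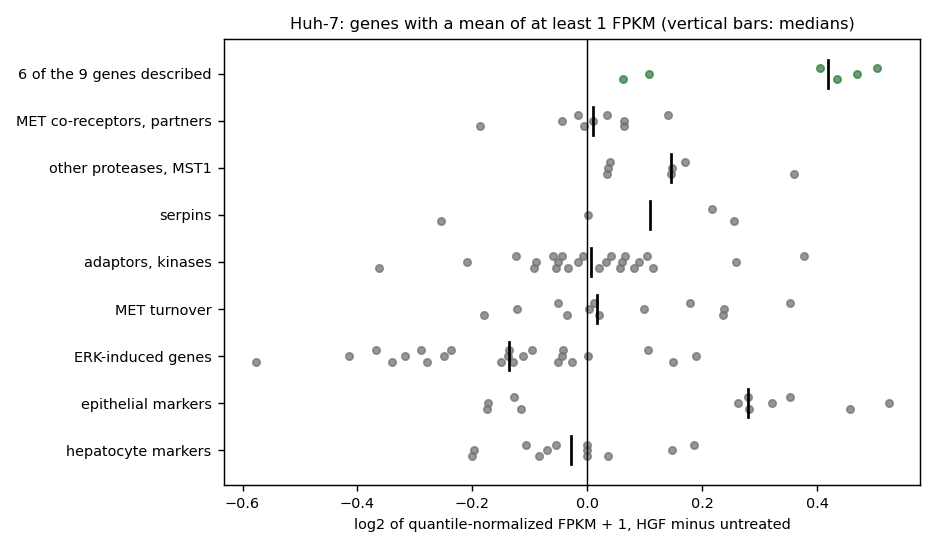
Difference in log2 of quantile-normalized FPKM + 1 between HGF-treated and untreated Huh-7 (horizontal axis), 1 point per gene with a mean of at least 1 FPKM and a black bar at each group's median. HGFAC, ST14, HPN and SPINT1 lie between 0.40 and 0.50, the ERK-induced genes have a median of -0.14 and the epithelial markers one of 0.28.

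In SK-Hep1, SPINT2 was the member averaging 1 FPKM or more that differed most among the transfectants on the log2 scale of FPKM + 1. Its reads numbered 49 in mock, 138 and 68 with PSPC1 without and with PTK6, and 61 and 118 with PSPC1-Y523F without and with PTK6. Its share of reads was 3.02 times mock in PSPC1 (2.16 to 4.27) and 2.15 times mock in PSPC1-Y523F/PTK6 (1.53 to 3.06). In PSPC1/PTK6 it was 1.26 times mock (0.860 to 1.86) and in PSPC1-Y523F 1.28 times (0.864 to 1.90), intervals that hold 1.
SPINT2 was thus highest with wild-type PSPC1 alone and with the mutant plus PTK6. With PTK6 beside PSPC1 it was at 0.417 times the PSPC1 library (0.307 to 0.562), and with PTK6 beside PSPC1-Y523F at 1.68 times the PSPC1-Y523F library (1.22 to 2.33). These comparisons do not share a library, and the difference between them was not tested. The PSPC1 level also differed between these libraries, and its part in the SPINT2 differences was not tested.

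SPINT1, the other inhibitor, showed a different library. Its 32 reads in PSPC1/PTK6 against 3 in mock gave 9.68 times (3.03 to 49.4), and against 2 in PSPC1 13.6 times (3.46 to 117), both from few reads. MET was 1.24 times mock in PSPC1/PTK6 (1.17 to 1.32) and 1.18 times mock in PSPC1-Y523F (1.11 to 1.25), and 0.945 times (0.886 to 1.008) and 0.999 times (0.9404 to 1.06) in PSPC1 and PSPC1-Y523F/PTK6. The median of all genes was itself higher by 0.15 on the log2 scale in PSPC1/PTK6 over mock on deposited FPKM, and with counts scaled by the TMM method MET was higher by 0.11. With PTK6 added, MET was 1.32 times the PSPC1 library (1.24 to 1.40) and 0.848 times the PSPC1-Y523F library (0.8004 to 0.899). In these comparisons the median of all genes on deposited FPKM was at 0.20 and -0.07 on the log2 scale. GAB1 was 1.37 times mock in PSPC1/PTK6 (1.03 to 1.83), but higher by 0.00 on the quantile-normalized scale, and its other intervals against mock held 1. MST1R, at 19 reads against 5, was 3.45 times mock in PSPC1/PTK6 (1.25 to 11.8). It was 2.36, 2.06 and 2.68 times mock in PSPC1, PSPC1-Y523F and PSPC1-Y523F/PTK6, with intervals that held 1. After quantile normalization it was at 0.342 FPKM in PSPC1/PTK6, 0.351 in PSPC1 and 0.475 in PSPC1-Y523F/PTK6, against 0.180 in mock.

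**Figure D3:**
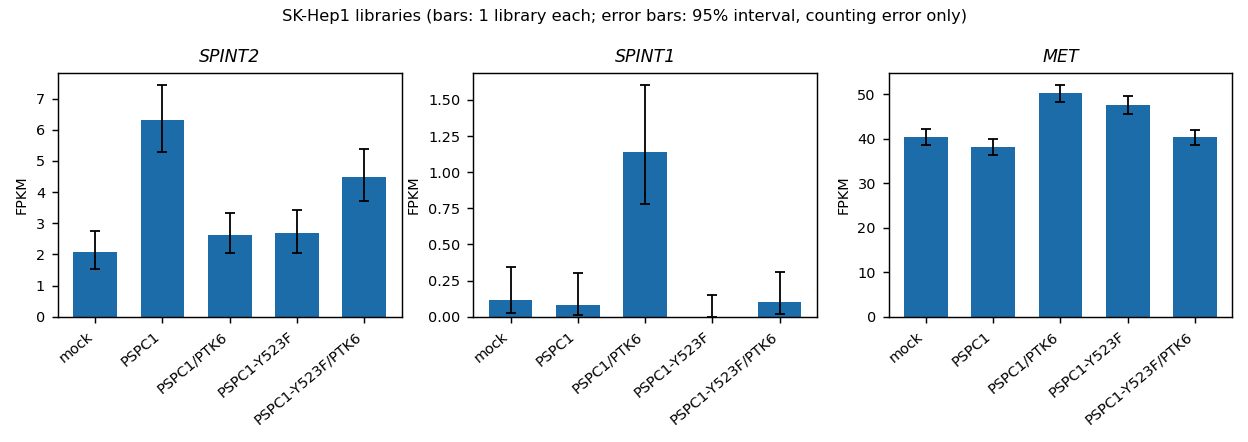
FPKM of SPINT2, SPINT1 and MET in the 5 SK-Hep1 libraries, with 95% intervals for counting error only and axes from 0. SPINT2 is highest in PSPC1 (6.30) and PSPC1-Y523F/PTK6 (4.49), SPINT1 in PSPC1/PTK6 (1.14) and MET in PSPC1/PTK6 (50.2).

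MET, SPINT2 and GAB1 had a mean of at least 1 FPKM in these comparisons. Of the 3, 1 passed 2-fold in PSPC1 over mock (SPINT2, higher by 1.26), beside 5.57% of all genes. In PSPC1/PTK6 over PSPC1 it was 1 again (SPINT2, log2 of -1.36), beside 4.96%. None of the 3 passed in PSPC1/PTK6, PSPC1-Y523F or PSPC1-Y523F/PTK6 over mock, beside 8.41%, 5.29% and 5.03%, nor in PSPC1-Y523F/PTK6 over PSPC1-Y523F, beside 5.98%. These comparisons share the mock, PSPC1 and PSPC1-Y523F libraries.

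Some partners of MET at the membrane varied more than MET. ITGB4, the integrin beta-4 chain that works with MET, was at 25.5 FPKM in mock and at 124, 130.4, 69.9 and 219 FPKM in the other libraries in the order given for MET, higher than mock in all 4. NRP2, a neuropilin co-receptor, was at 10.4 FPKM in mock, 33.8 in PSPC1 and 38.7 in PSPC1-Y523F, and at 7.97 and 8.51 FPKM in the libraries with PTK6. PLXNB3, a plexin, was at 6.59, 26.3, 7.02, 23.7 and 11.6 FPKM in the same order of libraries as MET.
Both NRP2 and PLXNB3 were thus highest in the libraries with PSPC1 or PSPC1-Y523F alone, a pattern that SPINT2 did not share. Of the 10 co-receptors, 3 passed 2-fold upward in PSPC1 over mock and 3 in PSPC1-Y523F, beside 419 of 12410 and 350 of 12382 genes. In PSPC1/PTK6 and in PSPC1-Y523F/PTK6 it was 1 each, beside 633 of 12436 and 427 of 12412 genes. ITGA6 alone passed downward, in PSPC1/PTK6, where 413 of 12436 genes did. CD44, whose variant forms bind HGF, was at 449 to 964 FPKM in SK-Hep1.

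Among the proteases, PLAU was at 431 FPKM in mock and 983 in PSPC1/PTK6 (2.28 times, 2.23 to 2.33), and PRSS8 (prostasin, which SPINT1 and SPINT2 inhibit) was at 0.307 FPKM in mock and 3.06 in PSPC1-Y523F/PTK6 (9.95 times, 4.61 to 25.6). Of the turnover genes, TIMP3, an inhibitor of the sheddases that release the MET ectodomain, was at 30.2 FPKM in mock and 205 in PSPC1/PTK6 (6.79 times, 6.54 to 7.06). LRIG1, which lowers MET at the membrane, was at 3.80 FPKM in mock and 0.719 in PSPC1 (0.190 times, 0.126 to 0.277). Of the 24 adaptors and kinases, 1 passed 2-fold in the 4 comparisons with mock, PIK3R1 in PSPC1 at 2.64 FPKM against 8.07 (0.327 times, 0.258 to 0.412). In that comparison 272 of 12410 genes were lower by 2-fold.
Of 24 genes induced through ERK, 3 were lower and 0 higher past 2-fold in PSPC1 over mock (EGR1, ETV4 and CCND1). Of all 12410 genes, 272 were lower and 419 higher there. In PSPC1/PTK6 over mock 3 of 25 were lower and 1 higher, beside 413 lower and 633 higher of 12436 genes. The counts are a description. EGR1 was at 9.59 FPKM in mock, 1.61 in PSPC1 and 1.36 in PSPC1/PTK6. It was also below mock in PSPC1-Y523F (3.48 FPKM) and PSPC1-Y523F/PTK6 (4.02 FPKM).

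**Figure D4:**
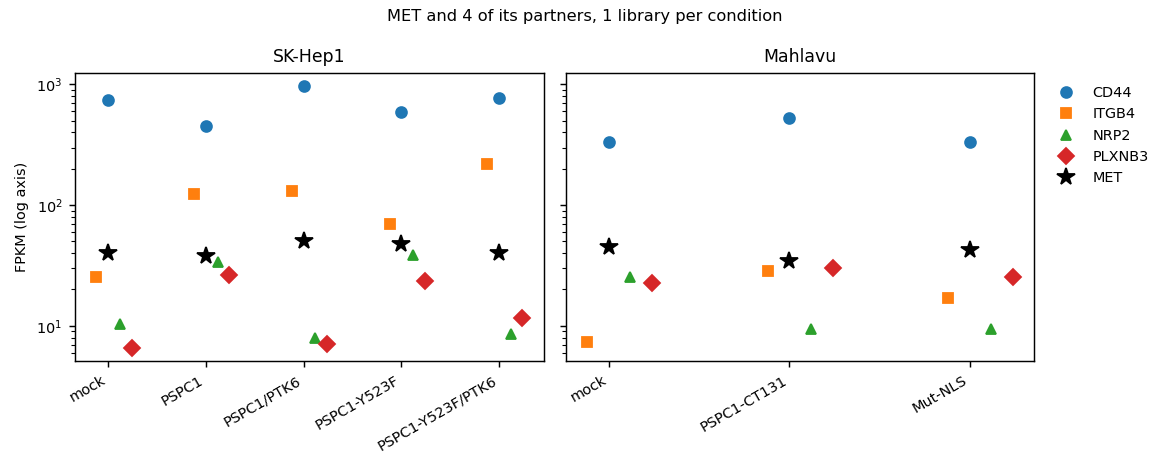
FPKM (log axis) of MET and of CD44, ITGB4, NRP2 and PLXNB3 in the SK-Hep1 and Mahlavu libraries, 1 library per condition, with points set side by side where they would overlap. MET stays between 34.1 and 50.2 FPKM, while ITGB4 runs from 25.5 to 219 FPKM in SK-Hep1 and NRP2 from 7.97 to 38.7.

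In Mahlavu, MST1R differed between libraries by more than its counting error. It had 11 reads in mock, 38 in the library labelled PSPC1-CT131 and 16 in that labelled Mut-NLS. The PSPC1-CT131 share was 3.96 times mock (1.98 to 8.58) and 2.29 times Mut-NLS (1.25 to 4.40), at a level under 1 FPKM. MET was at 0.764 times mock in PSPC1-CT131 (0.716 to 0.814), 0.958 times in Mut-NLS (0.901 to 1.02), and 0.797 times between PSPC1-CT131 and Mut-NLS (0.745 to 0.853).
The median gene of PSPC1-CT131 over mock was also lower, at -0.24 on the log2 scale of deposited FPKM. After quantile normalization MET was at -0.21, and after the median of genes of like GC content was taken out, a step chosen after the data were seen, it was at 0.03. The log2 differences followed GC content across genes in both comparisons with the PSPC1-CT131 library (Spearman's rho 0.566 and 0.574) and little in Mut-NLS over mock (rho -0.105). GAB1 was at 0.754 times mock in PSPC1-CT131 (0.6002 to 0.945) and 1.26 times in Mut-NLS (1.03 to 1.54). Its quantile-normalized log2 values were 0.06 and 0.44, so its direction in PSPC1-CT131 depended on the scale.
HPN, with 13, 14 and 11 reads, gave ratios whose intervals held 1, and SPINT1, SPINT2, HGFAC and ST14 had 7 reads or fewer. Neither of the 2 members with a mean of at least 1 FPKM, MET and GAB1, passed 2-fold, beside 6.33% of all genes in PSPC1-CT131 over mock, 6.42% in Mut-NLS over mock and 8.82% in PSPC1-CT131 over Mut-NLS.

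Around MET in Mahlavu, ITGB4 was at 7.36 FPKM in mock, 28.5 in PSPC1-CT131 and 17.2 in Mut-NLS, and NRP2 at 25.2, 9.40 and 9.37. Both other libraries thus differed from mock in the same direction for ITGB4 and NRP2, with the mock library shared. The list of partners they come from did not. Of 10, 9 were higher and 1 lower in PSPC1-CT131 over mock (median log2 0.46). Of 9 in Mut-NLS over mock, 3 were higher and 6 lower (median -0.09). In each comparison 2 partners passed 2-fold upward and 1 downward, beside the counts over all genes given below. PLAU was at 32.5, 52.2 and 68.7 FPKM, and CXCL8, an ERK-induced chemokine, at 4.10, 0.303 and 7.64. Most ERK-induced genes were higher than mock, unlike CXCL8 in PSPC1-CT131. Of 22, 19 were higher and 3 lower in PSPC1-CT131, with a median log2 of 0.54 beside 0.01 for all genes. In Mut-NLS 16 were higher and 6 lower, with a median of 0.51 beside 0.00. Of the 22 ERK-induced genes, 2 passed 2-fold upward and 1 downward in PSPC1-CT131 over mock, beside 394 upward and 392 downward of 12415 genes. In Mut-NLS over mock 3 passed upward and 1 downward, beside 393 upward and 405 downward of 12425 genes.

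The genes whose pattern over the 10 libraries was most like that of each member were found by Pearson's r of log2(FPKM + 1) among 12607 genes, as a description over 10 libraries of 3 lines. For MET they were PDCD5 (r = 0.942), TPRKB (0.926), IMPA1 (0.920), SREK1IP1 (0.914) and CENPI (0.911). For SPINT2 they were COPG2 (0.984), IFT140 (0.974) and MZT2A (0.969). For MST1R they were PIGO (0.948), CRABP2 (0.9003) and PPFIA4 (0.886).
The patterns of the genes high in Huh-7 gave higher values, since the 2 Huh-7 libraries set them. For SPINT1 the closest were DENND4A (0.992), DTD2 (0.991) and VPS54 (0.991), for ST14 TCEA3 (0.992), SERPINF2 (0.991) and NUBPL (0.990), and for GAB1 ELMOD2 (0.996), PPP2R2A (0.995) and RORA (0.995).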

How the data were processed

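RNA-Seq libraries of 10 conditions were read as deposited, 1 per condition, so the spread between cultures is unknown and no p-value is given. The authors deposited raw counts and FPKM for SK-Hep1 and Mahlavu (8 libraries) and FPKM only for Huh-7 (2 libraries). The submitters' processing notes list TopHat2 2.0, HTSeq 0.6.1, edgeR and GRCh38.p12. The paper's methods name another build and rRNA depletion, and the labels poly-A selection. Of the genes also in GENCODE 29, 97.6% were listed at their GRCh38 position.

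The deposited FPKM follow from counts, library totals and 1 length per gene, within 1 base of the mean GENCODE 29 transcript length for 93.8% of 30118 genes. With these lengths the Huh-7 FPKM gave whole reads (within 0.05) for 100% of 22724 and 22456 genes. 8 lines without values were left out per table. FPKM were quantile normalized over the 8 SK-Hep1 and Mahlavu libraries and, apart from them, over the 2 of Huh-7, whereas the paper's methods state this step for all samples together. Log2 differences of FPKM + 1 were counted at 2-fold among genes averaging 1 FPKM or more. Ratios of read shares have exact binomial 95% intervals, and reads carry no molecular identifiers, so these cover counting error only. Between lines, whose tables were normalized apart, deposited FPKM were compared. Code was tested on simulated data. Python 3.11.15 and edgeR 4.0.16 (TMM factors) were used. Alternatives were pseudocounts, filters, scalings and a GC correction.

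The members and 11 gene lists (6 of the pathway, 5 of cell type markers) were chosen with earlier results of these data known. Named genes were the 9 members, list genes past 2-fold (at most 3 per list and comparison, 5 for HGF), the most alike genes, and PSPC1 and PTK6, apart from those picked after their values were seen. This holds for MST1, the serpins, SPRY4, DUSP6 and the epithelial markers named for HGF, and for the genes named by level per line. The values of 1 further gene are not reported here.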

Additional observations from a re-analysis of the deposited data

Results flagged for a closer look

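PTK6 went with opposite differences in SPINT2 and in MET according to the form of PSPC1 beside it. SPINT2 in PSPC1/PTK6 was at 0.417 times the PSPC1 library, whereas in PSPC1-Y523F/PTK6 it was at 1.68 times the PSPC1-Y523F library. MET in PSPC1/PTK6 was at 1.32 times the PSPC1 library and in PSPC1-Y523F/PTK6 at 0.848 times the PSPC1-Y523F library. The median of all genes on deposited FPKM went the same way as MET, by 0.20 and -0.07 on the log2 scale. Log2 differences also followed GC content in PSPC1/PTK6 over PSPC1 (Spearman's rho -0.308), and little in PSPC1-Y523F/PTK6 over PSPC1-Y523F (rho -0.022). Over the alternative settings the log2 difference of MET ran from 0.17 to 0.39 and from -0.28 to -0.10. All 4 counting intervals lay off 1, but each rests on 1 library per condition, and the difference between the paired comparisons was not tested. The amounts of PSPC1 RNA also differed between these libraries, at 7.01 FPKM in PSPC1 and 26.4 in PSPC1/PTK6, and at 2.28 in PSPC1-Y523F and 70.9 in PSPC1-Y523F/PTK6, and their part in these differences was not tested.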

How the results depend on the processing

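No paired analysis was possible because each condition has 1 library. The depth limits HGF, HGFAC, ST14, SPINT1, SPINT2 and MST1R wherever they had a few reads, and with 1 library per condition neither the conditions nor their spread can be tested. The 2-fold counts of members held under every alternative run except these: with a pseudocount of 5 the 1 member in PSPC1 over mock and the 1 in PSPC1/PTK6 over PSPC1 both became 0, and with a pseudocount of 0.1 PSPC1-Y523F/PTK6 over mock gave 1 (SPINT2) in place of 0. SPINT2 in PSPC1 over mock ran from 0.73 to 1.51 on the log2 scale and in PSPC1/PTK6 over PSPC1 from -1.65 to -0.78. In PSPC1/PTK6 over mock it ran from -0.14 to 0.25 and so changed sign. MET in PSPC1-CT131 over mock ran from -0.39 to 0.03. Between SK-Hep1 and Mahlavu the count of 2 members became 1 after quantile normalization over all 10 libraries or at 4-fold and 0 at a mean of at least 5 FPKM, and at that mean SK-Hep1 against Huh-7 gave 2 and Mahlavu against Huh-7 gave 3, since fewer members were compared. In Huh-7 after HGF, HGFAC ran from 0.34 to 0.56, ST14 from 0.29 to 0.55, HPN from 0.42 to 0.44 and SPINT1 from 0.33 to 0.43. The correction for GC content and the count at 25% higher were added after the data were seen.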
